A study of Mus musculus with 18 samples.

Results

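Matrix proteases and inhibitors were followed in the mouse heart as 10 genes chosen by name, out of 34989 genes with summed transcripts: the matrix metalloproteinases Mmp2, Mmp3 and Mmp14, the tissue inhibitors Timp1, Timp2 and Timp3, and the ADAMTS proteases Adamts1, Adamts4, Adamts5 and Adamts9. All 10 passed the filter on low counts in both ventricles. Levels were measured by RNA sequencing in the left ventricle (LV) and right ventricle (RV) of hearts kept in ice-cold HTK, a preservation solution, for 0, 4, or 8 h and then perfused ex vivo with Krebs buffer for 1 h. The labels give 18 libraries, 3 for each ventricle and storage time, from mice of strain C57B/L6 aged 12 weeks, while the study's methods give wild type C57BL/6J mice of both sexes and a younger age. The 0 h hearts had received the same HTK infusion and the same perfusion, so that every group was reperfused and none was fresh tissue. The labels number the libraries without stating that each number was a separate heart, and p-values measure the spread between these libraries.

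Metalloproteinases are zinc enzymes that cut collagens, proteoglycans and other matrix proteins. Most are made as inactive precursors, and Mmp14, which sits in the cell membrane, activates the precursor of Mmp2 with Timp2 as a bridge. The TIMPs block the active site of these enzymes, and Timp3, which binds to the matrix, is the TIMP that also blocks Adamts4 and Adamts5. Adamts1, Adamts4, Adamts5 and Adamts9 cut the large proteoglycans versican and aggrecan. In the heart, fibroblasts are a main source of several of these proteins, and their balance bears on the matrix after ischemia.

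Of the 10 genes, 6 were higher after storage with reperfusion. Mmp3, Mmp14, Timp1, Adamts4 and Adamts9 rose in both ventricles at both storage times, and Adamts1 rose in RV at both times. In LV, Adamts1 at 4 h was called by DESeq2 (adjusted p = 0.00752) and not by edgeR (adjusted p = 0.109). Mmp2, Timp2, Timp3 and Adamts5 were called in no storage comparison. Thus 5 of the 10 genes were called higher in LV at 4 h, where 2.40% of all genes tested were called higher, and 5 at 8 h, where 5.46% were. In RV, 6 were called higher at 4 h (6.17% of all genes) and 6 at 8 h (13.0%). These shares are for scale and do not test the set, since the 10 genes were chosen with earlier results of these data known. None of the 10 was called lower by edgeR or DESeq2, where edgeR called 0.398% and 1.26% of all genes lower in LV and 3.91% and 5.26% in RV at 4 and 8 h. The largest change was that of Adamts4 in RV, from a mean of 12.2 to 698 CPM (counts scaled by library size) at 8 h, a fitted fold of 57.4. A gene was called when its adjusted p in edgeR's quasi-likelihood test was under 0.1 and its fold over 1.5, the thresholds of the study.

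The promoters of 4 of the genes are shown, because 3 of them, Mmp3, Timp1 and Adamts1, moved after storage and the last, Timp3, did not pass the test. Each is RefSeq sequence of GRCm38.p6 from 250 bases before to 50 bases after the annotated start, read 5′ to 3′ on the strand of the gene. Of the 10 genes, 7 had an entry, and Mmp2, Adamts4 and Adamts5 had none. Capitals mark matches on either strand to the AP-1 site TGANTCA, the TATA box TATAAA and the GC box GGGCGG.
Mmp3, chr9:7445572-7445871, plus strand: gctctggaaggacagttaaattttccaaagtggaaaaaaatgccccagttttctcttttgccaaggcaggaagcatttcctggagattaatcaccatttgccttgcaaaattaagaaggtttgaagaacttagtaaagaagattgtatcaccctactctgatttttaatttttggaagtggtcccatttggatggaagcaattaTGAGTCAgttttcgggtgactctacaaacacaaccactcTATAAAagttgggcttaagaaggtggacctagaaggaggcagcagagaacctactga
Timp1, chrX:20869916-20870215, plus strand: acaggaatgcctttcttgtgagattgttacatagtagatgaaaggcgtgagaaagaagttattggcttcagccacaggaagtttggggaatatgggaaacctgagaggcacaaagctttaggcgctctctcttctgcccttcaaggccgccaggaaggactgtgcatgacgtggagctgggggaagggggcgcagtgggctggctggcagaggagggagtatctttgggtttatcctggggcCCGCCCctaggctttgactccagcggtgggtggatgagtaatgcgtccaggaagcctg
Adamts1, chr16:85803064-85803363, minus strand: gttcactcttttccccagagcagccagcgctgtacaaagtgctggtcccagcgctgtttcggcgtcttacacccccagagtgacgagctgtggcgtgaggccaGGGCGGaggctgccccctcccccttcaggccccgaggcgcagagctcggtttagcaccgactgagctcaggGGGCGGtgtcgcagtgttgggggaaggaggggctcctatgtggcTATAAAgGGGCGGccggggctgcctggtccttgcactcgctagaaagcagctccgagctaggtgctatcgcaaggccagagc
Timp3, chr10:86300162-86300461, plus strand: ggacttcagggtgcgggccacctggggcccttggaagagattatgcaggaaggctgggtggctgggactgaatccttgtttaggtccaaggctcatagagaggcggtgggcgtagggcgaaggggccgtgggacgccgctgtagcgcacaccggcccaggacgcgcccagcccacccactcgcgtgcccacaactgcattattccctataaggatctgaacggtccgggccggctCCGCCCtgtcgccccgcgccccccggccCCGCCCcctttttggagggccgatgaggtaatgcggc

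Mmp3 held an AP-1 match that began 46 bases before the annotated start and a TATA match 7 bases before it. It was the only one of the 7 promoters with an AP-1 match, and 7.81% of 32851 promoters of this length held one. Adamts1 held a TATA match 32 bases before its start, and 13.6% of all promoters held such a match. GC boxes were found in the 6 other promoters and not in that of Mmp3, against 35.7% of all promoters. No match to the cAMP response element TGACGTCA, the NF-kB consensus or the serum response CArG consensus was found in the 7 windows, and 1.79%, 4.51% and 1.63% of all promoters held one. The matches share no base with one another, and they describe letters in these windows only.

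The libraries held between 22552581 and 46236771 estimated counts, and mitochondrial genes took between 22.7% and 34.4% of them. This share was 24.1% to 28.3% at 0 h and 32.0% to 34.4% at 8 h in LV. In RV it was 22.7% to 32.6% at 0 h and 33.3% to 34.2% at 8 h. The totals behind CPM and TPM include these genes. Levels of one gene are given below as CPM after TMM scaling of library sizes, and levels of different genes are compared in TPM, which is scaled by transcript length. Reads were assigned with default settings, which do not use strand, so that reads in exons shared with genes on the opposite strand cannot be told apart. Among the overlaps, shared exons covered 1733 of 8144 exon bases of Timp3 with Syn3 and 1381 and 424 of 15048 of Adamts9 with A730049H05Rik and Gm15737. Syn3 stayed between 0.169 and 3.70 CPM and Gm15737 between 0.400 and 0.982 CPM. A730049H05Rik was between 0.0933 and 0.991 CPM at 0 h and between 1.29 and 4.57 CPM in stored hearts, against 75.5 CPM or more for Adamts9 there.

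In bulk tissue, fewer cells of a type and less RNA per cell cannot be told apart. The summed level of 6 cardiomyocyte markers was between 46280 and 57570 CPM in the 0 h libraries of both ventricles, between 35150 and 40230 CPM in LV at 8 h and between 24920 and 47160 CPM in RV at 8 h. The sum of 6 fibroblast markers went from 1226 to 1390 CPM at 0 h to 1410 to 1876 CPM at 8 h in LV, and from 1801 to 1926 CPM to 1812 to 2891 CPM in RV. The sum of 6 neutrophil markers was at most 4.85 CPM at 0 h and between 11.6 and 22.5 CPM at 8 h, and Retnlg, one of them, was at 0 in all 3 LV libraries at 0 h. The sum of 6 macrophage markers overlapped between 0 h and 8 h in both ventricles, between 106 and 162 CPM and between 118 and 198 CPM in LV, and between 136 and 205 CPM and between 141 and 308 CPM in RV. The sum of 5 red blood cell genes was at most 6.21 CPM at 0 h and after 8 h reached 196 CPM in LV and 52.3 CPM in RV. That of 6 lymphocyte genes was low, at or below 1.44 CPM in every library. In LV it went from at most 0.498 CPM at 0 h to at least 1.02 CPM at 8 h, and in RV these groups overlapped. The sum of 6 endothelial markers overlapped between 0 and 8 h. Smooth muscle and pericyte markers (6) summed to 698 to 810 CPM at 0 h and 827 to 949 CPM at 8 h in LV, and overlapped in RV. Adipocyte markers (5) summed to 6.27 to 6.98 CPM at 0 h and 7.11 to 30.5 CPM at 8 h in RV, and overlapped in LV. Already at 4 h, the neutrophil sum was above 0 h in both ventricles, between 4.75 and 9.12 CPM in LV and between 6.93 and 11.9 CPM in RV. The sum of 5 epicardial markers in RV went from between 12.3 and 44.9 CPM at 0 h to between 48.1 and 59.5 CPM at 4 h, and that of lymphocyte genes from at most 0.542 to at least 0.762 CPM. In LV, the red blood cell sum went from between 4.51 and 6.21 CPM at 0 h to between 8.24 and 84.8 CPM at 4 h. The part of these cell types in the changes of the proteases and inhibitors was not tested. In each group, 1 library had a summed level of 4 Y-linked genes of 4.63 to 6.78 CPM and the other two had 133 to 194 CPM. It was replicate 2 at 0 h and replicate 3 at 4 and 8 h in both ventricles, so that results are also given without these libraries.

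**Figure D1:**
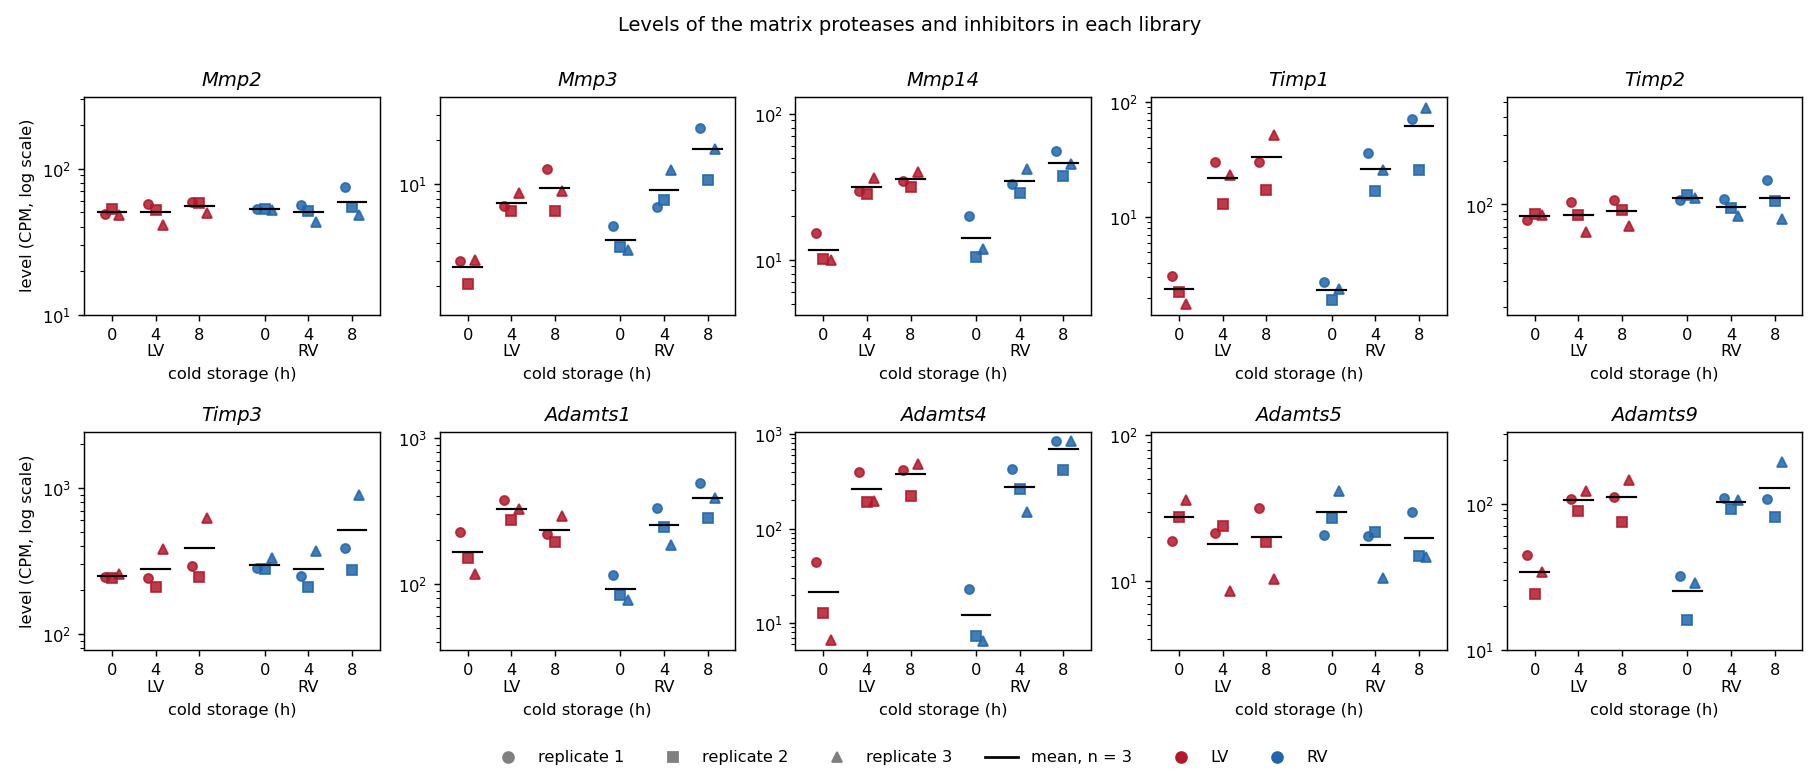
Level of each of the 10 genes in every library, in CPM on a log axis. Points are single libraries of LV (red) and RV (blue) with a symbol for each replicate number, and bars are means of 3 libraries. Mmp3, Mmp14, Timp1, Adamts4 and Adamts9 lie above every 0 h library of their ventricle in all stored libraries, Adamts1 does so in all but replicates 1 and 2 of LV at 8 h, and the highest Timp3 values after storage are those of replicate 3.

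The genes differed widely in level at 0 h. In LV at 0 h, Timp3 was the highest of the 10 with 68.4 ± 2.10 TPM (SD, n = 3), followed by Adamts1 with 45.9 ± 14.2, Timp2 with 35.0 ± 2.13 and Mmp2 with 23.0 ± 2.19 TPM. The levels of Mmp14, Adamts9, Adamts4, Timp1 and Adamts5 lay between 4.24 and 6.59 TPM and did not differ beyond their spread, and Mmp3 was lowest with 2.06 ± 0.324 TPM. In RV at 0 h, the order of the 4 highest was Timp3 with 80.8 ± 3.21, Timp2 with 47.0 ± 11.6, Adamts1 with 25.4 ± 7.83 and Mmp2 with 23.5 ± 2.15 TPM. In RV at 8 h, Adamts4 had the highest mean with 158 ± 52.1 TPM, followed by Timp3 with 110.4 ± 64.8, Timp1 with 87.4 ± 43.6 and Adamts1 with 83.3 ± 22.6 TPM, and the ranges of all 4 overlapped. Adamts5 was the lowest of the 10 there, with 2.39 ± 1.09 TPM.

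Among the metalloproteinases, Mmp3 (ENSMUSG00000043613.8, chromosome 9, 7445822 to 7455975 of GRCm38) encodes stromelysin, which cuts proteoglycans and fibronectin and activates other metalloproteinases. In LV, replicates 1 to 3 had 2.97, 2.09 and 3.05 CPM at 0 h, 7.12, 6.62 and 8.75 CPM at 4 h, and 12.7, 6.57 and 8.996 CPM at 8 h. In RV they had 5.17, 3.76 and 3.56 CPM at 0 h, 7.06, 7.82 and 12.6 CPM at 4 h, and 24.4, 10.8 and 17.4 CPM at 8 h. Every stored library lay above every 0 h library of its ventricle. LV gave a log2 fold change of 1.47 at 4 h (SE 0.26, adjusted p = 0.0383) and 1.80 at 8 h (SE 0.26, adjusted p = 0.0128). The LV call at 4 h was lost in 5 of 15 alternatives (adjusted p up to 0.204). In RV it was 1.15 at 4 h (SE 0.33, adjusted p = 0.0738) and 2.08 at 8 h (SE 0.34, adjusted p = 0.0059). The RV call at 4 h was lost without either RV library of replicates 2 and 3 at 0 h (adjusted p = 0.237 and 0.263), without any one of the 3 RV libraries at 4 h (0.109 to 0.209), and without the libraries of low Y-linked level (0.321).

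Mmp14 (ENSMUSG00000000957.11, chromosome 14, 54431612 to 54445364) encodes the membrane-bound MT1-MMP. Its LV level was 15.1, 10.1 and 9.92 CPM at 0 h, 29.4, 28.2 and 36.4 CPM at 4 h, and 34.8, 31.5 and 39.9 CPM at 8 h. Its RV level was 19.8, 10.4 and 11.9 CPM at 0 h, 33.2, 28.6 and 41.9 CPM at 4 h, and 55.2, 37.6 and 45.1 CPM at 8 h. Replicate 1 was the highest 0 h library in both ventricles, and no stored library came down to it. In edgeR the log2 fold change was 1.42 (SE 0.19, adjusted p = 0.0207) at 4 h and 1.60 (SE 0.19, adjusted p = 0.0061) at 8 h in LV, and 1.32 (SE 0.27, adjusted p = 0.0256) and 1.72 (SE 0.27, adjusted p = 0.0055) in RV. The share of its counts held by the transcript Mmp14-201 was 88.0 ± 2.27% in LV at 0 h and 94.6 ± 0.672% at 8 h.

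Mmp2 (ENSMUSG00000031740.8, chromosome 8, 92827291 to 92853420), which encodes gelatinase A, the enzyme that Mmp14 activates, stayed between 41.2 and 74.9 CPM in all 18 libraries. Its log2 fold changes were 0.00 and 0.15 in LV at 4 and 8 h (SE 0.14 each) and -0.05 and 0.18 in RV (SE 0.18 each), with adjusted p between 0.497 and 0.996. Mmp2 was the most abundant of the 3 in TPM at 0 h, and the summed level of the 3 genes went from 29.3 to 33.1 TPM in LV at 0 h to 38.8 to 46.9 TPM at 8 h. In RV the sum was 29.2 to 41.8 TPM at 0 h and 42.0 to 63.8 TPM at 8 h.

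Among the inhibitors, Timp1 (ENSMUSG00000001131.11, chromosome X, 20870166 to 20874735) encodes a secreted TIMP that blocks most soluble metalloproteinases and blocks Mmp14 poorly. Its LV level was 3.08, 2.26 and 1.77 CPM at 0 h, 30.1, 12.9 and 23.2 CPM at 4 h, and 30.2, 17.3 and 51.8 CPM at 8 h. Its RV level was 2.75, 1.93 and 2.38 CPM at 0 h, 35.9, 16.9 and 25.6 CPM at 4 h, and 70.9, 25.4 and 89.0 CPM at 8 h. The lowest stored library was replicate 2 at both times in both ventricles, and it still lay above every 0 h library. Its log2 fold change was 3.21 (SE 0.46, adjusted p = 0.0239) at 4 h and 3.79 (SE 0.47, adjusted p = 0.0069) at 8 h in LV, and 3.49 (SE 0.48, adjusted p = 0.0072) and 4.73 (SE 0.50, adjusted p = 0.0013) in RV. Its 2 transcripts are both protein coding, and Timp1-202 held 18.1 ± 16.1% of the counts in LV at 0 h and 47.7 ± 8.54% at 4 h, and 47.1 ± 24.1% and 48.6 ± 1.56% in RV. With few counts at 0 h, these shares are imprecise.

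Timp2 (ENSMUSG00000017466.9, chromosome 11, 118301069 to 118355740) and Timp3 (ENSMUSG00000020044.13, chromosome 10, 86300372 to 86349506) did not pass the test. Timp2 was between 64.9 and 107 CPM in LV and between 79.0 and 148 CPM in RV, with log2 fold changes between -0.21 and 0.11 (SE 0.19 to 0.21, adjusted p between 0.695 and 0.987). Timp3 had 247, 243 and 258 CPM in LV at 0 h, 243, 209.6 and 383 CPM at 4 h, and 290.0, 247 and 627 CPM at 8 h. In RV it had 282, 278 and 333 CPM at 0 h, 251, 210.5 and 368 CPM at 4 h, and 390.4, 276 and 890.3 CPM at 8 h. Replicate 3 was the highest stored library in both ventricles, while replicates 1 and 2 at 4 h lay below the 0 h range. The log2 fold change at 8 h was 0.64 in LV (SE 0.35, adjusted p = 0.296) and 0.83 in RV (SE 0.41, adjusted p = 0.2), and without the libraries of low Y-linked level it was 0.08 and 0.10. At 4 h it was 0.16 in LV (SE 0.35, adjusted p = 0.888) and -0.09 in RV (SE 0.41, adjusted p = 0.955). Without RV replicate 2 at 8 h, Timp3 was called in RV at 8 h with a log2 fold change of 1.14 (adjusted p = 0.057).

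The same replicate 3 libraries were low in other genes. Adamts5 had its lowest value of each stored group there, at 8.60 and 10.4 CPM in LV and 10.6 and 14.7 CPM in RV at 4 and 8 h. Timp2 also did so, at 64.9, 71.0, 83.4 and 79.0 CPM. Timp4, the TIMP expressed mainly in the heart, was at 9.85 and 10.8 CPM in LV and 5.44 and 10.9 CPM in RV in these libraries, against 18.6 to 41.8 CPM in the other stored libraries. At 0 h, where replicate 2 had the low Y-linked level, Timp3 in that library was the lowest of its group in both ventricles, and Timp4 was the middle value of its group in both. What set replicate 3 apart was not tested.

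Among the ADAMTS proteases, Adamts4 (ENSMUSG00000006403.13, chromosome 1, 171250421 to 171260637) encodes aggrecanase 1, which also cuts versican. Its LV level was 44.7, 12.7 and 6.56 CPM at 0 h, 398, 191 and 197 CPM at 4 h, and 419, 224 and 483 CPM at 8 h. Its RV level was 23.0, 7.31 and 6.43 CPM at 0 h, 428, 259.9 and 149 CPM at 4 h, and 836, 415 and 842 CPM at 8 h. Replicate 1 was the highest 0 h library in both ventricles, and every stored library lay above it. The log2 fold change was 3.62 (SE 0.69, adjusted p = 0.0473) at 4 h and 4.14 (SE 0.71, adjusted p = 0.0219) at 8 h in LV, and 4.52 (SE 0.63, adjusted p = 0.0075) and 5.84 (SE 0.67, adjusted p = 0.0016) in RV. The LV call at 4 h was lost without LV replicate 2 or 3 at 0 h (adjusted p = 0.24 and 0.155), without LV replicate 1 or 3 at 4 h (0.131 and 0.115), and without the libraries of low Y-linked level (0.138). The LV call at 8 h was lost without LV replicate 2 at 0 h (adjusted p = 0.121) and without the libraries of low Y-linked level (adjusted p = 0.103). Adamts4 made up 4.25% to 15.4% of the summed TPM of the 4 ADAMTS genes at 0 h and 33.3% to 62.6% after storage.

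Adamts9 (ENSMUSG00000030022.14, chromosome 6, 92772699 to 92943492), which cuts versican and is needed in heart development, had 44.4, 24.1 and 34.3 CPM in LV at 0 h, 107, 88.6 and 123 CPM at 4 h, and 111, 75.5 and 146 CPM at 8 h. In RV it had 31.8, 15.9 and 28.7 CPM at 0 h, 109, 91.5 and 105 CPM at 4 h, and 108, 80.7 and 194 CPM at 8 h. No stored library overlapped with 0 h in either ventricle. In edgeR the log2 fold change was 1.63 (SE 0.28, adjusted p = 0.0379) at 4 h and 1.70 (SE 0.28, adjusted p = 0.0191) at 8 h in LV, and 2.02 (SE 0.37, adjusted p = 0.0173) and 2.35 (SE 0.37, adjusted p = 0.0055) in RV. The LV call at 4 h was lost in 4 of 15 alternatives (adjusted p up to 0.199).

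Adamts1 (ENSMUSG00000022893.14, chromosome 16, 85793827 to 85803113) encodes the founding member of the family, a protease that cuts versican. Its LV level was 226, 151 and 117 CPM at 0 h, 374, 273 and 328 CPM at 4 h, and 221, 193 and 290.2 CPM at 8 h. Its RV level was 116, 84.0 and 78.1 CPM at 0 h, 331, 245 and 184 CPM at 4 h, and 493, 284 and 388 CPM at 8 h. In LV all 4 h libraries lay above 0 h and at 8 h replicate 3 lay above 0 h and replicates 1 and 2 did not, while in RV the stored and 0 h libraries did not overlap. LV gave a log2 fold change of 0.98 at 4 h (SE 0.25, adjusted p = 0.109) and 0.52 at 8 h (SE 0.25, adjusted p = 0.252), and neither passed the test. The LV value at 4 h was called in 6 of 15 alternatives, among them DESeq2, the tool of the study (adjusted p = 0.00752), and without LV replicate 1 at 0 h (adjusted p = 0.0426). In RV it was 1.47 at 4 h (SE 0.28, adjusted p = 0.0214) and 2.08 at 8 h (SE 0.29, adjusted p = 0.0034).

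Adamts5 (ENSMUSG00000022894.6, chromosome 16, 85856173 to 85901828), which encodes aggrecanase 2 and lies next to Adamts1 on the same strand, was the one gene of the 10 with a negative log2 fold change in all 4 comparisons. It had 18.9, 27.5 and 35.8 CPM in LV at 0 h, 21.6, 24.1 and 8.60 CPM at 4 h, and 31.6, 18.7 and 10.4 CPM at 8 h. In RV it had 20.9, 27.1 and 41.3 CPM at 0 h, 20.6, 21.7 and 10.6 CPM at 4 h, and 29.7, 14.9 and 14.7 CPM at 8 h. The groups overlapped in each comparison. The log2 fold changes were -0.59 and -0.43 in LV (SE 0.46 each) and -0.74 and -0.59 in RV (SE 0.36 each), with adjusted p between 0.285 and 0.599.

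**Figure D2:**
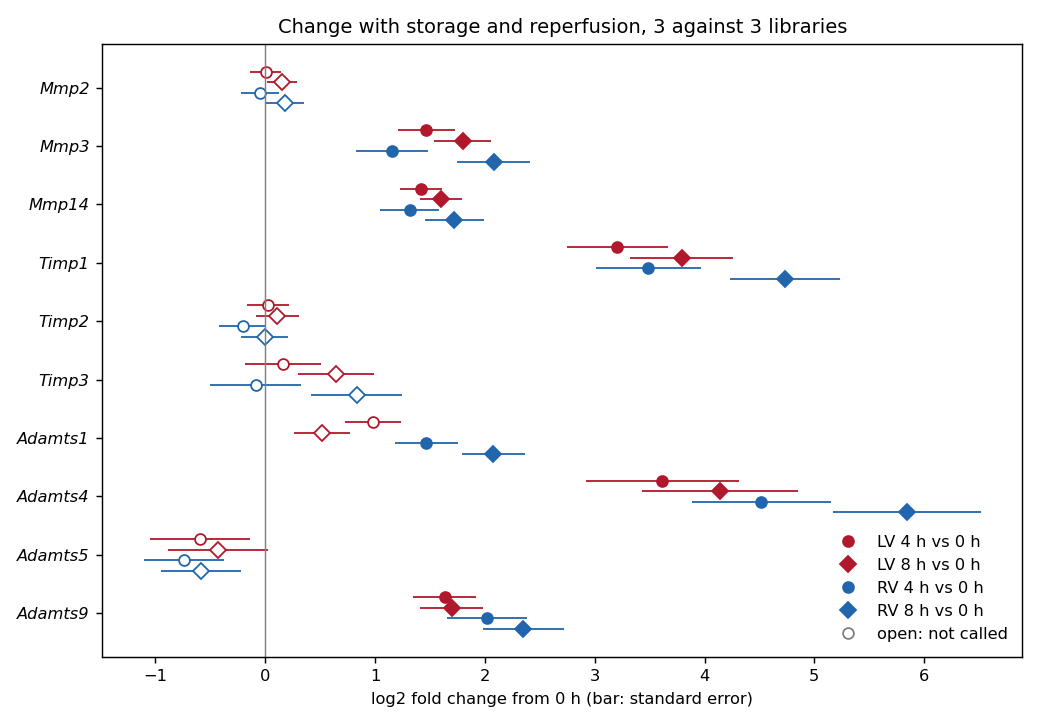
Log2 fold change of each gene after 4 h (circles) and 8 h (diamonds) against 0 h in LV (red) and RV (blue), with standard errors, 3 against 3 libraries. Filled symbols are genes called by edgeR. The changes of Timp1 and Adamts4 lie between 3.21 and 5.84, those of Mmp3, Mmp14 and Adamts9 between 1.15 and 2.35, and open symbols mark Mmp2, Timp2, Timp3, Adamts5 and the LV values of Adamts1.

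Every stored library lay above every 0 h library for 6 of the 10 genes in LV at 4 h, 5 in LV at 8 h and 6 in RV at each time, where 12.9%, 15.5%, 15.1% and 18.5% of all genes tested did so. The genes had been chosen with earlier results of these data known. The number of genes called in LV at 4 h rested on single libraries, with 0 of the 10 called without LV replicate 2 at 0 h, 1 without LV replicate 3 at 0 h, and 2 without LV replicate 1 or 3 at 4 h. Of 15 alternatives, the LV call at 4 h was lost in 5 for Mmp3, 5 for Adamts4, 4 for Adamts9, 2 for Timp1 and 1 for Mmp14. The RV calls of Mmp14 and Adamts1 at 4 h were lost without RV replicate 2 or 3 at 0 h (adjusted p between 0.116 and 0.131), and that of Mmp14 also without the libraries of low Y-linked level (0.1005). The number called in RV at 4 h was 3 without RV replicate 2 or 3 at 0 h. Without the libraries of low Y-linked level, 3, 4, 4 and 6 genes were called higher in the order LV at 4 h, LV at 8 h, RV at 4 h and RV at 8 h.

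Between 4 and 8 h no further change was called. In LV the log2 difference was between -0.47 for Adamts1 and 0.58 for Timp1. In RV it was above 0 for all 10 genes, with 1.33 for Adamts4 (SE 0.55), 1.24 for Timp1 (SE 0.43), 0.93 for Mmp3 (SE 0.32) and 0.92 for Timp3 (SE 0.41), and the adjusted p of each was 0.599. edgeR called 0 of the 10 genes in either ventricle and DESeq2 also called 0, while 0 in LV and 3 in RV had an unadjusted p under 0.05. Over all genes, edgeR called 0% and 8.10% in LV and 6.57% in RV had an unadjusted p under 0.05.

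The balance among the genes followed was described by ratios of TPM in each library, with no test. Other members of the families, among them Mmp13 and Timp4, were left out of the sums, so that the ratios do not describe whole families. The sum of Timp1, Timp2 and Timp3 over the sum of Mmp2, Mmp3 and Mmp14 was 3.33 to 3.54 in LV at 0 h, 2.73 to 3.83 at 4 h and 2.92 to 5.48 at 8 h. In RV it was 3.40 to 4.01 at 0 h, 2.93 to 3.83 at 4 h and 3.22 to 7.31 at 8 h. The groups overlapped, and the highest value of each ventricle was that of replicate 3 at 8 h, the library with the most Timp3. Timp1 was 2.84% to 5.58% of the summed TIMP level at 0 h and 20.2% to 42.4% after storage. The sum of the 4 ADAMTS genes over Timp3 was 0.670 to 1.27 in LV and 0.387 to 0.614 in RV at 0 h. After storage it was 1.47 to 3.63 in LV and 1.16 to 3.78 in RV, above 0 h in every stored library, and lowest in replicate 3 at each time.

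**Figure D3:**
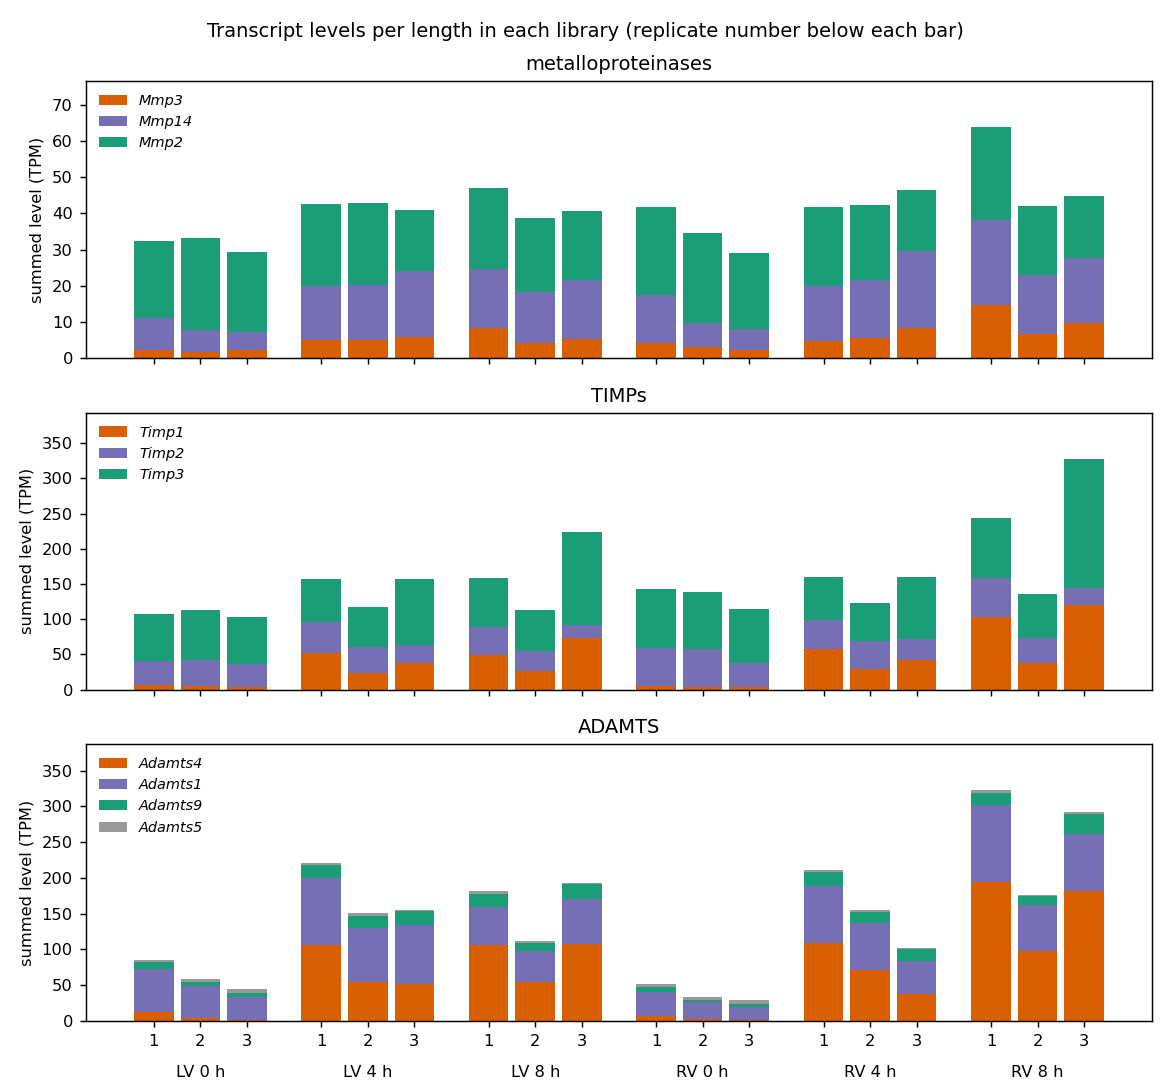
Summed TPM of the 3 metalloproteinases, the 3 TIMPs and the 4 ADAMTS proteases in each of the 18 libraries, with 1 stacked bar per library and the replicate number below it. The Timp1 and Adamts4 segments are small at 0 h, at most 5.58% of the TIMP sum and 15.4% of the ADAMTS sum, and are at least 20.2% and 33.3% in the stored libraries.

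Whether LV and RV differed was compared directly over all 18 libraries. Without the replicate block, edgeR called none of the 10 genes between RV and LV at 0, 4, or 8 h, or in the change from 0 h, and DESeq2 also called 0. Over all genes, edgeR called 0.159%, 0.0133% and 0.0331% at 0, 4, and 8 h and 0% in each change. An unadjusted p under 0.05 was found for 1 gene at 0 h (Adamts1), 0 at 4 h, 2 at 8 h (Mmp3 and Adamts1), 0 in the change to 4 h and 1 in the change to 8 h (Adamts1). Over all genes, 3.21%, 2.96% and 11.1% were under it at 0, 4, and 8 h, and 1.05% and 4.16% in the changes to 4 and 8 h. The RV libraries did not overlap with those of LV at 0 h for 4 of the 10 genes, with Mmp3, Timp2 and Timp3 above (5.39% of all genes) and Adamts1 below (4.71% of all genes), and overlapped for all 10 at 4 and 8 h. LV and RV libraries of the same storage time and number deviated together from their group means, so that values with each heart (storage time and number) as a replicate block are given as well.

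With the block, edgeR called 2 genes between the ventricles at 0 h, where 1.01% of all genes were called higher and 0.835% lower in RV. Timp2 (log2 difference 0.42, adjusted p = 0.0224) and Adamts9 (-0.44, adjusted p = 0.0474) passed the p threshold and missed the fold threshold. Of the 10 genes, 7 had an unadjusted p under 0.05, against 14.3% of all genes. Adamts1 was lower in RV, with a log2 difference of -0.80 (SE 0.16, adjusted p = 0.0274), and the RV library had 0.511, 0.556 and 0.671 of the level of its LV partner in hearts 1 to 3. Mmp3 was higher in RV, with a log2 difference of 0.62 (SE 0.15, adjusted p = 0.0558). Both calls rested on 2 hearts, since each was lost without heart 1 or heart 2 of 0 h, with adjusted p up to 0.256 for Adamts1 and 0.426 for Mmp3. At 4 h none of the 10 was called with the block, against 1.93% of all genes, and 2 had an unadjusted p under 0.05, against 16.7% of all genes.

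At 8 h Adamts1 was higher in RV. RV had 2.23, 1.47 and 1.34 times the LV level of the same heart, and the log2 difference with the block was 0.71 (SE 0.16, adjusted p = 0.0094). Adamts4 had 1.996, 1.86 and 1.74 times the LV level (log2 difference 0.90, SE 0.17, adjusted p = 0.0036). Timp1 had 2.35, 1.47 and 1.72 times (0.87, SE 0.12, adjusted p = 0.00067), and Mmp3 1.93, 1.64 and 1.93 times (0.88, SE 0.12, adjusted p = 0.00083). The RV value was thus above that of the LV partner in all 3 hearts for each of these 4 genes, although the groups overlapped. The same held for Mmp14, Timp2 and Timp3, with log2 differences of 0.368, 0.276 and 0.365 with the block. These passed the p threshold (adjusted p = 0.0193, 0.0303 and 0.0142) and missed the fold threshold. The share of all genes above in all 3 hearts was not counted. With the block, 6.53% of all genes were called higher in RV at 8 h. An unadjusted p under 0.05 was found for 7 of the genes followed, against 36.8% of all genes. In the same comparison, 4 of 4 adipocyte, 2 of 6 macrophage, and 1 each of the fibroblast, smooth muscle, epicardial and atrial markers tested were called higher in RV, 3 of 5 red blood cell genes were called lower, and 2 of 5 neutrophil markers were called in each direction. Their part in these differences was not tested. The calls of Mmp3, Timp1 and Adamts4 held in each of the 3 fits that left out 1 heart of 8 h, and that of Adamts1 was lost without heart 1, with a log2 difference of 0.48.

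The change from 0 to 8 h was larger in RV than in LV for 4 of the 10 genes with the block, where 4.72% of all genes were called in that direction. The log2 difference between the changes was 1.51 for Adamts1 (SE 0.23, adjusted p = 0.0031), 1.53 for Adamts4 (SE 0.25, adjusted p = 0.0046), 0.88 for Timp1 (SE 0.22, adjusted p = 0.0348) and 0.60 for Adamts9 (SE 0.14, adjusted p = 0.027). For Adamts9, the log2 difference of RV from LV with the block was -0.44 at 0 h (adjusted p = 0.0474) and 0.16 at 8 h (adjusted p = 0.261), and neither was called. Mmp3 and Mmp14 were not called in the change to 8 h, with differences of 0.25 (SE 0.19, adjusted p = 0.474) and 0.13 (SE 0.14, adjusted p = 0.636). The calls of Adamts1 and Adamts4 held in all 6 fits that left out 1 heart of 0 or 8 h, with log2 differences between 1.29 and 1.66 and between 1.32 and 1.79. That of Timp1 was lost without heart 1 or 2 of 0 h (adjusted p up to 0.188), and that of Adamts9 without heart 1 or 2 of 0 h or heart 3 of 8 h. For the change to 4 h none of the 10 was called with the block, against 0.305% of all genes, and 2 had an unadjusted p under 0.05, against 8.90% of all genes.

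**Figure D4:**
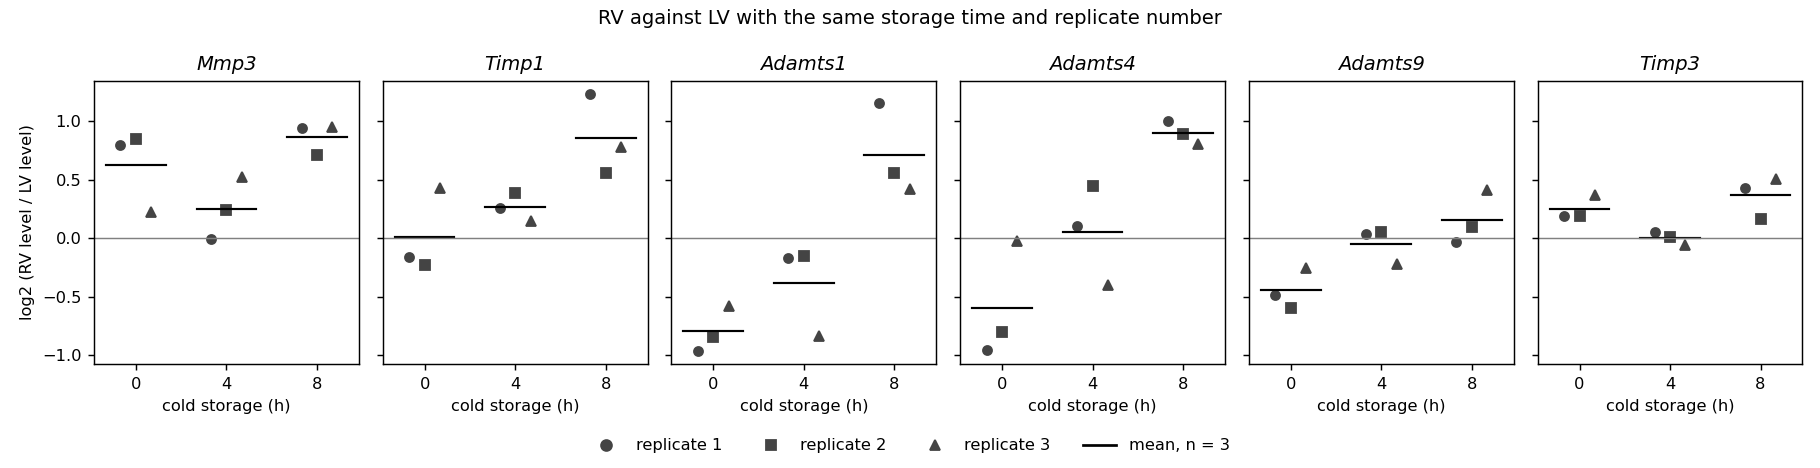
Log2 ratio of the RV level to the LV level of the same heart (same time and number), for 6 genes at 0, 4, and 8 h, with bars for the mean of 3 hearts. Adamts1 lies below 0 in all 3 hearts at 0 h, between -0.97 and -0.58, and above 0 in all 3 at 8 h, between 0.42 and 1.16. Adamts4 and Mmp3 lie at 0.71 or above in all 3 hearts at 8 h.

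Other genes of matrix turnover were counted in lists, against 5.46% of all genes higher and 1.26% lower in LV, and 13.0% and 5.26% in RV, after 8 h. Of the other matrix metalloproteinases, 2 of 11 tested were higher in LV at 8 h, and 4 of 12 were higher and 2 lower in RV. Mmp13, a collagenase, rose from 4.97 ± 1.63 to 35.7 ± 6.56 CPM in LV (log2 fold change 2.84, adjusted p = 0.0104) and from 2.93 ± 1.01 to 60.0 ± 20.6 CPM in RV (4.35, adjusted p = 0.00054). In RV, Mmp19 rose (1.27, adjusted p = 0.0112), and Mmp28 and Mmp11 fell by 1.53 and 1.10 on the log2 scale (adjusted p = 0.0291 and 0.0485). The macrophage elastase Mmp12 was also higher in both ventricles (1.36 in LV, adjusted p = 0.0522, and 1.29 in RV, adjusted p = 0.0492), and Mmp25, a membrane-bound enzyme of leukocytes, in RV (2.45, adjusted p = 0.0992). Mmp9, the gelatinase carried by neutrophils and also on the list of neutrophil markers, stayed at or below 5.45 CPM, and its log2 fold change at 8 h was 1.01 in LV (adjusted p = 0.272) and 1.08 in RV (adjusted p = 0.125).

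Of the other ADAMTS proteases, 1 of 13 was higher and 1 lower in LV at 8 h, and 3 were higher and 2 lower in RV. Adamts8 rose from 1.29 ± 0.526 to 12.6 ± 6.87 CPM in LV (log2 fold change 3.26, adjusted p = 0.0171) and from 0.816 ± 0.205 to 17.7 ± 9.74 CPM in RV (4.45, adjusted p = 0.0018). Adamts7 fell in both, by 0.86 in LV (adjusted p = 0.0164) and by 1.01 in RV (adjusted p = 0.0248) on the log2 scale. In RV, Adamts14, a procollagen protease, and Adamts12 were also higher (1.13 and 0.98, adjusted p = 0.0229 and 0.0813), and Adamts10, which acts in fibrillin fibres, was lower (-0.96, adjusted p = 0.0522).

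Among the other inhibitors, Tfpi2, an inhibitor of plasmin and other serine proteases, rose in both ventricles, with log2 fold changes of 3.58 in LV (adjusted p = 0.0059) and 4.62 in RV (adjusted p = 0.0011). Timp4 was not called, with -0.28 in LV (adjusted p = 0.763) and -0.60 in RV (adjusted p = 0.434).

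In the plasminogen system, which also activates metalloproteinases, 1 of 7 genes was higher in LV and 2 were in RV after 8 h. Plat, the tissue plasminogen activator, rose in both, with 1.42 in LV (adjusted p = 0.0171) and 2.24 in RV (adjusted p = 0.0018), and Plaur, the urokinase receptor, rose in RV with 3.56 (adjusted p = 0.0118). Of 9 receptors and cofactors, Sdc4 and Cd44, cell surface proteoglycans, rose in both ventricles (1.71 and 1.58 in LV, adjusted p = 0.0274 and 0.0343, and 2.05 and 2.24 in RV, adjusted p = 0.0132 and 0.0036), and Sdc1 also rose in RV (1.03, adjusted p = 0.0328). Of 7 ADAM sheddases, Adam8, found mainly on leukocytes, was higher in both ventricles (1.75 in LV, adjusted p = 0.0459, and 1.78 in RV, adjusted p = 0.0195). Adam9 and Adam17, the latter the sheddase of tumour necrosis factor, were higher in RV (0.82 and 0.72, adjusted p = 0.0139 and 0.011).

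Of 13 proteoglycan and glycoprotein substrates, 5 were higher in LV, 6 were higher in RV, and none was lower after 8 h. The list had a median log2 fold change of 0.50 in LV and 0.48 in RV, where the medians of all genes were -0.02 and -0.07. Vcan, the versican gene that Adamts1, Adamts4, Adamts5 and Adamts9 act on as protein, went from 12.2, 14.1 and 13.8 CPM at 0 h to 35.2, 27.6 and 57.1 CPM at 8 h in LV, and from 11.3, 12.7 and 11.2 CPM to 43.4, 28.0 and 69.9 CPM in RV. Its log2 fold change was 1.59 in LV (SE 0.26, adjusted p = 0.0172) and 2.03 in RV (SE 0.34, adjusted p = 0.0064). Tnc, Thbs1 and Postn, matricellular proteins, also rose in both, with 2.99, 1.77 and 0.80 in LV and 3.56, 3.33 and 1.21 in RV on the log2 scale (adjusted p between 0.0044 and 0.049). Fn1, the fibronectin gene, rose in both as well (0.73 in LV, adjusted p = 0.0536, and 1.00 in RV, adjusted p = 0.0277), and Bgn, which encodes biglycan, in RV (0.67, adjusted p = 0.0934).

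**Figure D5:**
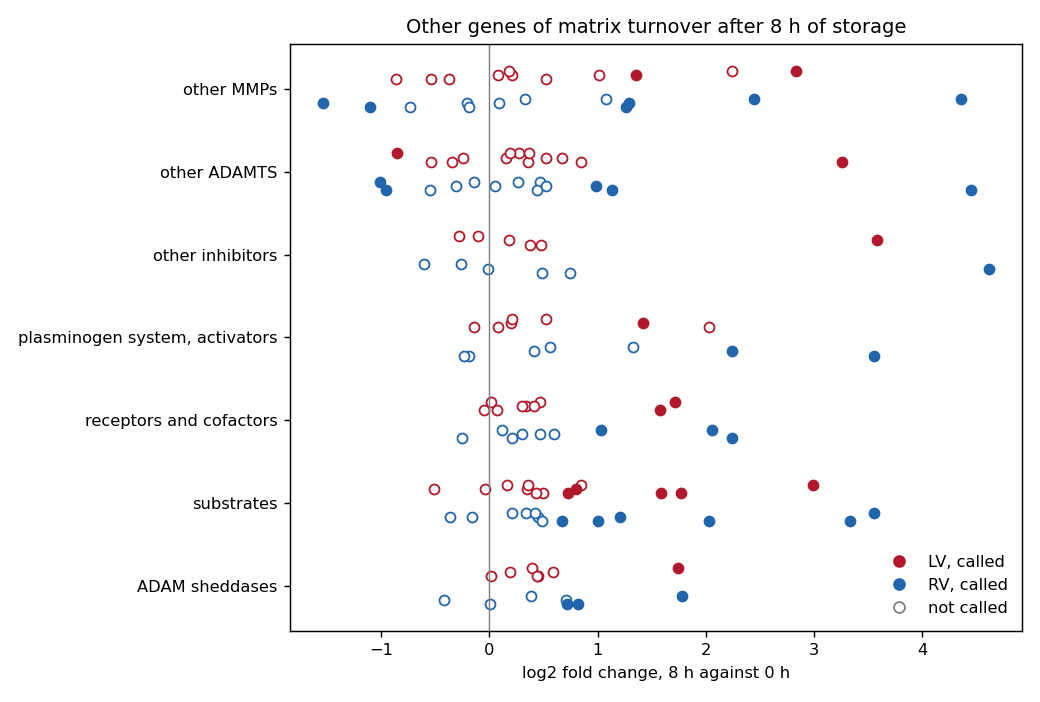
Change after 8 h (log2 fold against 0 h) of tested genes of 7 lists in LV (red) and RV (blue), with filled points for genes called by edgeR and vertical offsets only to separate points. Called genes lie on both sides of 0 among the other metalloproteinases and ADAMTS proteases, and only above 0 in the lists of inhibitors, plasminogen system, receptors, substrates and ADAM sheddases.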

How the data were processed

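RNA-seq libraries of LV and RV (3 per ventricle and storage time) were analysed from the deposited tables. Per the labels and the study's methods, the authors selected mRNA, sequenced stranded libraries and quantified them with kallisto at default settings against GRCm38. The authors deposited estimated counts (expected counts), transcript lengths and TPM values per transcript, not normalized between libraries. Counts were summed to genes with GENCODE M21, where 110203 of 111462 transcripts matched, and rounded. Depth sets the error of low genes, and each group has 3 libraries.

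After filterByExpr and TMM scaling, tests were run in edgeR 4.0.16 in R 4.3.3 (quasi-likelihood test, Benjamini-Hochberg adjusted p over all genes tested). Storage times were compared over the 9 libraries of a ventricle, and ventricles over all 18. Alternatives were RLE size factors, DESeq2 1.42.0 and edgeR with offsets for transcript length, testing without a filter, another threshold, a Y-linked covariate, all libraries in 1 fit, the replicate block and each library left out. Leaving out the libraries of low Y-linked level or whole hearts was chosen after seeing the data. The fits were checked on simulated data. TPM was used for levels only.

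Whether libraries of one number deviate together from their group means was checked. The pairing rests on the labels' numbers and on the study's collection of LV and RV from each heart. For libraries of the same number, the correlation was 0.325 to 0.697 between LV and RV of one storage time. Between 4 and 8 h it was 0.358 to 0.568 in LV and 0.327 to 0.487 in RV. Between 0 h and stored libraries it was 0.111 to 0.276 in RV and -0.019 to 0.261 in LV. Each heart had a single storage time, so that a shared number does not pair hearts across storage times. What libraries of one number share across storage times was not tested.

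The 10 genes and the lists were chosen with earlier results of these data known. All 10 were named, and of the other lists up to 4 called genes with the smallest adjusted p, with Timp4, Mmp9 and Vcan whatever their values. Other called genes of the lists (Mmp12, Mmp25, Adamts12, Fn1, Bgn) were named after their values were seen.

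Some results are not reported here.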

Additional observations from a re-analysis of the deposited data

Results flagged for a closer look

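The change from 0 to 8 h differed between RV and LV for 4 genes by the test of the difference itself, in edgeR with each heart as a replicate block. The log2 difference between the changes (RV minus LV) was 1.51 for Adamts1, 1.53 for Adamts4, 0.88 for Timp1 and 0.60 for Adamts9, with adjusted p of 0.0031, 0.0046, 0.0348 and 0.027. The change was larger in RV for each. Without the block none of these differences was called, with log2 differences of 1.56, 1.70, 0.92 and 0.63 and an adjusted p of 1.0 for each. Groups of 3 libraries were not searched for single outlying values.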

How the results depend on the processing

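Of 600 alternative values of the 10 genes in the 4 storage comparisons, 535 kept their direction and their side of the threshold, 31 lost a call, 7 gained one and 27 changed sign, all of the last in Mmp2, Timp2 or Timp3, which were not called. For Mmp2 in LV at 4 h the log2 fold change was -0.003 without a filter, -0.044 in DESeq2, -0.045 in edgeR with length offsets, -0.009 with the replicate block and -0.01 with the Y-linked covariate. For Timp2 it was -0.009 and -0.002 in LV at 4 h with the block and the covariate, and in RV at 8 h 0.028 with RLE size factors, 0.083 in DESeq2 and 0.056 with length offsets. Without the libraries of low Y-linked level it was -0.154 for Timp3 in LV at 4 h, 0.049 for Mmp2 in RV at 4 h and 0.198 for Timp2 in RV at 8 h.

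With 1 library left out, Mmp2 ranged from -0.107 to 0.12 in LV at 4 h, -0.142 to 0.051 in RV at 4 h and -0.01 to 0.301 in RV at 8 h, Timp2 from -0.152 to 0.18 in LV at 4 h, -0.032 to 0.245 in LV at 8 h and -0.247 to 0.187 in RV at 8 h, and Timp3 from -0.145 to 0.327 in LV at 4 h and -0.354 to 0.079 in RV at 4 h. The number of the 10 genes called ranged from 0 to 6 in LV and 3 to 6 in RV at 4 h, from 4 to 5 in LV and 6 to 7 in RV at 8 h, and was 0 in every other comparison. In LV at 4 h it was 3 without the libraries of low Y-linked level.

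With the replicate block, 2, 4 and 4 genes were called between ventricles at 0 h, at 8 h and in the change to 8 h, against 0 without it. In the storage comparisons the numbers of the block do not pair hearts. In LV the block added Adamts1 at 4 h (adjusted p = 0.0767), as did DESeq2 (0.00752), no filter (0.096), the covariate (0.0955), 1 fit of all 18 libraries (0.0929) and leaving out LV replicate 1 at 0 h (0.0426). The block raised the genes called in LV from 407 to 662 at 4 h and from 978 to 1540 at 8 h. In RV it changed no call of the 10 genes. The cause of these shifts was not tested.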
